A study of Mus musculus with 6 samples.

Results

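Gene counts from mouse small intestinal organoids at day 6 after treatment were compared with those at day 4, using all 6 libraries of the series, 4 of day 6 and 2 of day 4, with the treatment as an additive term. Organoids are cultures of intestinal epithelium, and each library holds cells sorted for green fluorescent protein from the *Lgr5* locus. Of 16031 genes tested, 65 were chosen for description. They passed an adjusted p of 0.05 for day by the quasi-likelihood test of edgeR with Benjamini-Hochberg adjustment and had a mean of at least 5 CPM (a gene's counts relative to the TMM-scaled library total) over the 6 libraries. In addition, both day 6 libraries of a treatment had to lie on the same side of that treatment's day 4 library, and on the same side in EtOH and in 4-OHT. Among the 65 genes, 44 were higher at day 6 and 21 were lower. Among the higher genes, 10 are on the marker lists of enterocytes, goblet, Paneth and enteroendocrine cells, including *Lct*, *Apoa1*, *Krt20*, *Zg16*, *Clca1* and *Chga*. They are 6 of 22 enterocyte, 2 of 15 goblet, 1 of 15 Paneth and 1 of 20 enteroendocrine markers tested. Of all 16031 genes tested, 44 were chosen as higher. The lower genes include 13 protein-coding genes with at least 12000 bases of annotated exon, such as *Hspg2*, *Fras1*, *Kmt2d* and *Birc6*.

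The organoids came from Villin-CreERT2; Lgr5-EGFP-IRES-CreERT2; Ythdf2 fl/fl mice, and every library of either treatment carries these alleles. Villin drives the recombinase throughout the intestinal epithelium, the *Lgr5* locus drives it and the fluorescent reporter in stem cells of the crypt, and 4-OHT (4-hydroxytamoxifen, 0.5 µM) activates it so that the floxed part of *Ythdf2* can be cut out. EtOH is the solvent control. Day 6 holds 2 libraries of EtOH and 2 labelled 4-OHT, and day 4 holds 1 of each. Nothing in the labels says that the replicates came from separate mice or cultures, so the p-values measure only the spread between these samples. The titles of both day 4 libraries carry the letters ISC, and those of day 6 do not. Whether this marks another kind of sample cannot be told from the titles. The day 4 libraries also have library numbers from another run of numbers than those of day 6. Day, this difference in title and library series therefore cannot be told apart in any value given here.

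*Ythdf2*, which encodes a reader of N6-methyladenosine that promotes decay of marked messenger RNA, did not fall in the libraries labelled 4-OHT. Its level was 75.6 CPM (EtOH) and 167 CPM (4-OHT) at day 4, against 83.8 and 76.0 CPM (EtOH) and 207 and 205 CPM (4-OHT) at day 6. The 4-OHT libraries were thus the higher ones on both days, against the label, and gene counts do not show whether the floxed exons were present. Its day difference was 0.19 on the log2 scale (SE 0.12, adjusted p = 0.525 by edgeR).

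Sequencing depth was 14345379 to 21461835 gene counts per library. Reads outside annotated genes made up 6.19% and 6.70% of all entries at day 4 and 2.63% to 3.76% at day 6. Genes for olfactory, vomeronasal and bitter taste receptors, which the epithelium has little use for, held 820 and 384 counts at day 4 and 48 to 151 counts at day 6. The 2 day 6 libraries numbered 2 stood apart from the rest: *Xist*, the RNA that coats the inactive X chromosome, was at 1.10 CPM (EtOH) and 0.107 CPM (4-OHT) there and at 569 to 1307 CPM in the other 4 libraries. The Y-linked genes *Ddx3y*, *Eif2s3y*, *Kdm5d* and *Uty* summed to 232 and 207 CPM in the libraries numbered 2, to 0 in the day 6 libraries numbered 1, and to 1.63 (EtOH) and 1.69 CPM (4-OHT) at day 4. The day 6 libraries numbered 1 and 2 are thus not repeats of RNA from the same animals, and the labels say no more of their source. None of these 5 genes passed the test for day. Without the libraries numbered 2, 1071 genes met the rule for description (423 higher, 648 lower) and 64 of the 65 were among them. Without those numbered 1 the number was 550 (274 higher, 276 lower), with 61 of the 65. By a chi-square of the counts over genes per degree of freedom, the day 6 EtOH replicates differed from each other by 33.2, and EtOH replicate 2 of day 6 differed from the EtOH library of day 4 by 15.6, less than from its own replicate. The 4-OHT replicates of day 6 differed by 22.9.

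Across all genes tested, 87 passed the test for day, 0.543% of the total, with 52 higher (0.324%) and 35 lower (0.218%) at day 6. Of the 10433 genes at or above 5 CPM on average, 65 passed (0.623%), which were 44 higher (0.422%) and 21 lower (0.201%), and all of these also met the condition on order. That condition alone was met in the higher direction by 22.1% of genes of this level and in the lower direction by 15.4%. Over the 16031 genes the log2 fold change had a median of 0.02, and 2117 genes (13.2%) had an unadjusted p under 0.05 for day by edgeR. Just inside the threshold on p lay *Gdf15* (adjusted p = 0.0499 by edgeR) and just outside it *Mdn1* (adjusted p = 0.0511). *Ets1*, at 5.16 CPM, was just inside the threshold on level and *Tdrd1*, at 4.998 CPM, just outside.

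**Figure D1:**
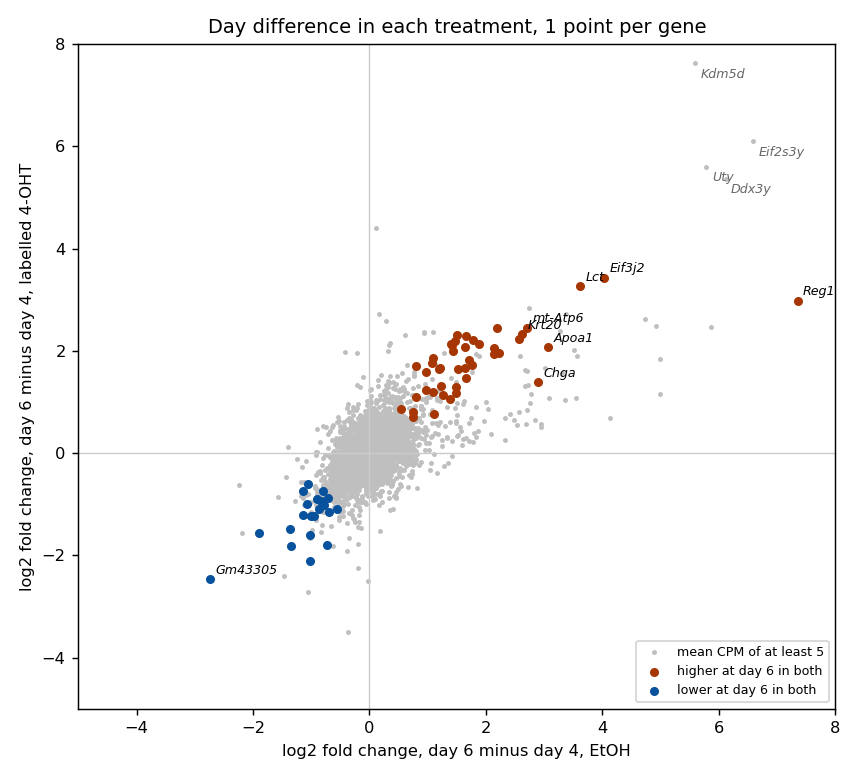
Log2 fold change of day 6 over day 4 in EtOH (x axis) against that in the libraries labelled 4-OHT (y axis), 1 point per gene at or above 5 CPM on average. The 44 genes higher at day 6 (brown) and the 21 lower (blue) lie in opposite corners, with *Gm43305* lowest, while the Y-linked genes in grey rest on the day 6 libraries numbered 2 alone and the EtOH value of *Reg1* rests on 1 count at day 4.

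Within each treatment, the day 6 libraries were also set against the single day 4 library in a fit of 4 groups. In EtOH 33 genes passed (0.206% of those tested), 29 higher and 4 lower, and in 4-OHT 52 passed (0.324%), 37 higher and 15 lower. In both treatments and in the same direction, 12 genes passed. Of the 65 described genes, 11 passed in EtOH and 26 in 4-OHT. The day differences of the 10433 genes correlated between the treatments with a Pearson's r of 0.642 and a Spearman's rho of 0.518, across genes, which are not independent replicates. No gene passed the edgeR test of a different day effect in the 2 treatments (0.00%). Before adjustment 294 genes had p under 0.05, fewer than the 801.55 expected at that threshold if no gene differed. DESeq2 called 6, among them *Gcg*, which is described below.

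The small intestine renews its epithelium from *Lgr5*-expressing stem cells at the base of the crypts. Their daughters divide, leave the crypt and become either absorptive enterocytes, which carry digestive enzymes and transporters on a brush border and pack lipid into lipoproteins, or secretory cells. The secretory types are goblet cells that make mucus, Paneth cells that make antimicrobial peptides, enteroendocrine cells that make hormones, and tuft cells that sense the lumen.

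Stem cell markers were present in all 6 libraries. *Lgr5*, a receptor for R-spondin, was at 366 CPM (EtOH) and 273 CPM (4-OHT) at day 4 and at 253 and 344 CPM (EtOH) and 208 and 227 CPM (4-OHT) at day 6. The ranges of the days overlapped, and the log2 fold change of −0.31 (SE 0.14) had an adjusted p of 0.380 by edgeR. *Olfm4*, a secreted glycoprotein of crypt base cells, was at 1471 CPM (EtOH) and 862 CPM (4-OHT) at day 4 and between 986 and 3345 CPM at day 6, with a log2 fold change of 0.66 (SE 0.20, adjusted p = 0.192 by edgeR). Of 23 stem cell markers tested, 0 passed the test in either direction, 6 had an unadjusted p under 0.05 by edgeR, and the median log2 fold change was −0.11. DESeq2 called 1 of them higher and 1 lower. By the condition on order 9 were lower and 2 higher, where 18.4% of all genes tested were lower and 18.5% higher. An unadjusted p under 0.05 by edgeR was found for 13.2% of all genes tested. Of 17 Wnt target genes (median −0.03) and 24 proliferation genes (median 0.06), 0 passed by edgeR, 0 and 2 had an unadjusted p under 0.05, and DESeq2 called 0 and 1. Markers of cells outside the intestinal epithelium were at low levels: their summed CPM ranged over the libraries from 6.42 to 15.8 for 14 genes of fibroblasts and mesenchyme, from 10.6 to 15.6 for 10 genes of endothelium, from 5.41 to 10.6 for 14 genes of immune cells and from 2.98 to 5.04 for 10 neural and glial genes. In bulk RNA such as this, fewer cells of a type and less RNA per cell cannot be told apart.

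Of 22 enterocyte markers tested, 6 were higher at day 6 and 0 lower, where 0.324% of all genes were higher, and the list median was a log2 fold change of 0.88 against 0.02 for all genes. The higher markers included *Lct*, *Apoa1*, *Krt20*, *Apoa4* and *Slc2a2*. The summed level of the 22 markers was 3762 CPM (EtOH) and 4393 CPM (4-OHT) at day 4, 3591 and 4234 CPM in EtOH at day 6, and 8181 and 6653 CPM in 4-OHT at day 6. The sum thus overlapped between the days in EtOH and did not in 4-OHT, and the list median was 0.47 in EtOH and 1.38 in 4-OHT.

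*Lct* encodes lactase, which splits milk sugar at the brush border. It was at 0.255 CPM (EtOH) and 1.22 CPM (4-OHT) at day 4, and at 3.86 and 2.55 CPM (EtOH) and 14.5 and 9.07 CPM (4-OHT) at day 6. All 4 day 6 values lay above both day 4 values, and the log2 fold change was 3.39 (SE 0.39, adjusted p = 0.00515 by edgeR). The day 4 levels stand on 5 and 18 counts.

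*Krt20*, a keratin of differentiated villus cells on chromosome 11 (99319227 to 99328985, minus strand, GRCm39), was at 3.42 CPM (EtOH) and 26.6 CPM (4-OHT) at day 4. At day 6 it was at 22.8 and 19.5 CPM (EtOH) and at 144 and 122 CPM (4-OHT). It was higher at day 6 within each treatment, while the day 4 library labelled 4-OHT exceeded both day 6 EtOH libraries. The log2 fold change of 2.44 (SE 0.16, adjusted p = 0.000227 by edgeR) is given over both treatments, and the gene also passed within EtOH alone.

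*Apoa1* encodes the main protein of high-density lipoprotein, which enterocytes secrete. Its level was 4.44 CPM (EtOH) and 84.3 CPM (4-OHT) at day 4, and 44.2 and 30.1 CPM (EtOH) and 396 and 310.2 CPM (4-OHT) at day 6. The log2 fold change was 2.46 (SE 0.25, adjusted p = 0.00338 by edgeR), and the treatments stood further apart than the days. *Apoa4*, a related apolipoprotein, rose from 1.02 CPM (EtOH) and 4.68 CPM (4-OHT) to 4.56 and 2.37 CPM (EtOH) and 15.1 and 15.7 CPM (4-OHT), with a log2 fold change of 1.74 (SE 0.31, adjusted p = 0.0438 by edgeR). Of its exon bases, 69.8% overlap those of another gene, and the strand setting of the counting is not given in the sources used here.

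*Ggt1*, which encodes gamma-glutamyltransferase at the cell surface, showed 1.94 CPM (EtOH) and 9.49 CPM (4-OHT) at day 4 and 9.27 and 8.80 CPM (EtOH) and 30.6 and 43.0 CPM (4-OHT) at day 6. Its log2 fold change was 2.06 (SE 0.22, adjusted p = 0.00338 by edgeR).

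Further absorptive genes among the 44 fall outside the rule by which genes were named and were picked after their values were seen. The sugar transporters *Slc2a2* (glucose, 1.73, SE 0.23) and *Slc2a5* (fructose, 1.86, SE 0.22) rose, as did *Creb3l3*, a transcription factor of lipid metabolism (1.45, SE 0.22), and the brush border genes *Myo1a* (0.78, SE 0.14) and *Cdhr5* (0.73, SE 0.11), in log2 fold changes. *Cdhr5* encodes a protocadherin that links microvilli to one another and *Myo1a* the motor that ties their membrane to the actin core. The metabolic enzymes *Gda* (2.05), *Cyp3a13* (1.49), *Adh6a* (1.42), *Hpd* (1.32) and *Xdh* (1.28) rose too. Of the exon bases of *Cyp3a13*, 21.3% overlap another gene.

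Not every enterocyte marker passed the test, and those that did not pass had values of either sign. *Alpi*, intestinal alkaline phosphatase, was at 76.8 CPM (EtOH) and 188 CPM (4-OHT) at day 4, at 96.7 and 107 CPM in EtOH at day 6, and at 475 and 506 CPM in 4-OHT at day 6, with a log2 fold change of 0.87 (SE 0.20, adjusted p = 0.107 by edgeR). For *Sis*, sucrase-isomaltase, the log2 fold change was 1.58 (SE 0.33, adjusted p = 0.0809 by edgeR), and *Apob* and *Mgam* had negative values of −0.41 and −0.25. By the condition on order alone, 16 of the 22 markers were higher and 1 (*Mgam*) was lower, where 18.5% of all genes tested were higher and 18.4% lower. Leaving out 1 library at a time, the number of enterocyte markers that passed ranged from 2 (without the day 4 library labelled 4-OHT) to 13 (without EtOH replicate 2 of day 6).

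**Figure D2:**
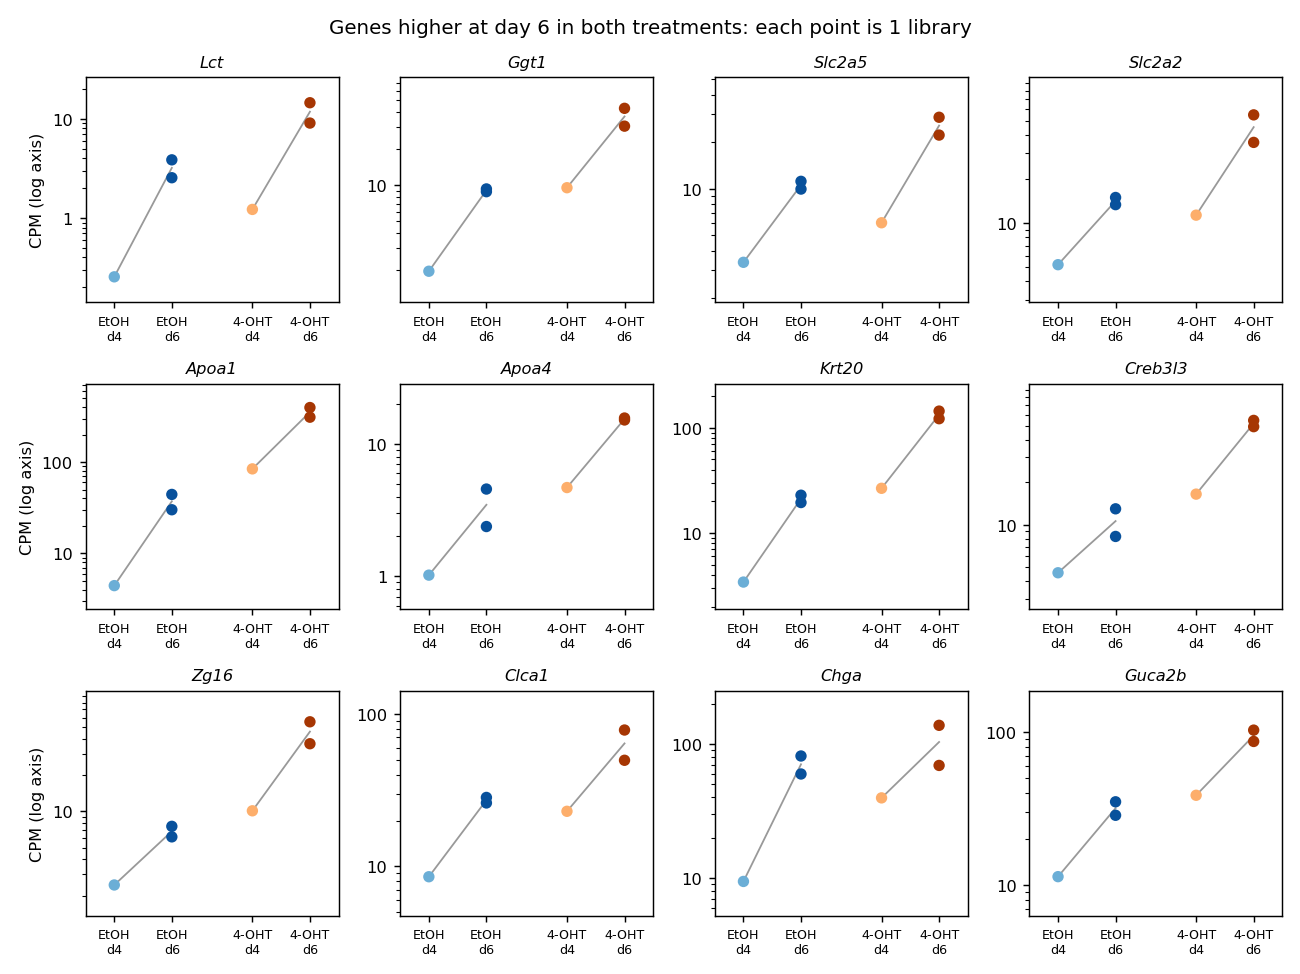
CPM (log axis) of 12 genes higher at day 6, with 1 point per library and lines from the day 4 library to the mean of the 2 day 6 libraries of the same treatment. Every day 6 point lies above the day 4 point of its treatment, and the 4-OHT libraries lie above the EtOH libraries of the same day, except that for *Chga* 1 of the 2 at day 6 lies below 1 EtOH library.

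Promoter sequences were examined for the higher genes because these genes moved together. A window of 300 bases, from 250 before to 50 after the first listed start of a gene, was taken from RefSeq (GRCm38.p6). It was found for 28 of the 39 protein-coding higher genes and 10 of the 18 lower ones. The windows were searched on both strands for 5 motifs of intestinal factors. Other starts of the same gene were not searched, and the start used in these cells is not known. The GATA motif AGATAA was in 7 of 28 windows of higher genes (25.0%), 0 of 10 of lower genes, and 6.73% of the windows of 10948 tested genes. The AP-1 motif TGANTCA was in 7 of 28 (25.0%) and 1 of 10, against 5.19%. Over all 27025 promoters of the table the shares were higher, at 11.4% for GATA, 7.93% for AP-1, 12.1% for CDX, 7.20% for HNF1 and 14.3% for HNF4. The CDX motif TTTATG was in 4 of 28 (14.3%) against 6.50%, the HNF1 half-site GTTAAT in 3 (10.7%) against 4.35%, and the HNF4 half-site CAAAGT in 3 (10.7%) against 11.9%. These are descriptions of letters in a window and were not tested. The 7 windows with the GATA motif are those of *Lct*, *Krt20*, *Ggt1*, *Creb3l3*, *Hpd*, *H2-Q2* and *Sult6b2*. The windows of the 3 of these genes that the naming rule chose are shown 5′ to 3′ on the strand of the gene, with coordinates of GRCm38.p6, which differ from those of GRCm39 used elsewhere, and with the GATA and CDX motifs of either strand in capitals.
Lct promoter, chr1:128328269-128328568, minus strand: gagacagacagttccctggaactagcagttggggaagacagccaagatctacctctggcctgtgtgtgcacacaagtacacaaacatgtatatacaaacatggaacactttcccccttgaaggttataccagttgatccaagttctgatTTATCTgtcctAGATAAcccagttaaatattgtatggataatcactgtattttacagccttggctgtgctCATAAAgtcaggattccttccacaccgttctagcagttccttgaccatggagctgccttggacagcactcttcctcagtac
Krt20 promoter, chr11:99438104-99438403, minus strand: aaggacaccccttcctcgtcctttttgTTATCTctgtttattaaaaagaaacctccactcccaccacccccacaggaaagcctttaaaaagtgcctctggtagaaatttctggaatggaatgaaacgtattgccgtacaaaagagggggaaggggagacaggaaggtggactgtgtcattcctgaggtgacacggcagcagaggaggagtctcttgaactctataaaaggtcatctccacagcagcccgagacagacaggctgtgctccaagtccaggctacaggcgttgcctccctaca
Ggt1 promoter, chr10:75563882-75564181, plus strand: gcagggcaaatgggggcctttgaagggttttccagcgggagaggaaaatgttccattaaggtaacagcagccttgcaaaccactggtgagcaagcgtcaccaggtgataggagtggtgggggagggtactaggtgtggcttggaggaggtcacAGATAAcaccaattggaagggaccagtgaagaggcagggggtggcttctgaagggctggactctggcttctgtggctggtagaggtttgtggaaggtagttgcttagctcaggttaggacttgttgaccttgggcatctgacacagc
The window of *Lct* holds the GATA motif on each strand, a few bases apart, and 1 CDX motif nearer the start, while those of *Krt20* and *Ggt1* hold 1 GATA motif each.

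Some markers of the secretory lineages also passed the test as higher, as 0.324% of all genes tested did. These were 2 of 15 for goblet cells, 1 of 15 for Paneth cells, 2 of 20 for enteroendocrine cells and 0 of 10 for tuft cells. Of the 15 goblet cell markers tested, 2 rose (*Zg16* and *Clca1*) and 0 fell, with a list median of 0.86. *Zg16* encodes a lectin of intestinal mucus. It was at 2.45 CPM (EtOH) and 10.1 CPM (4-OHT) at day 4 and at 7.51 and 6.14 CPM (EtOH) and 55.3 and 36.4 CPM (4-OHT) at day 6, with a log2 fold change of 1.88 (SE 0.26, adjusted p = 0.0123 by edgeR). *Clca1* encodes a secreted protease that processes mucus. It went from 8.57 CPM (EtOH) and 22.98 CPM (4-OHT) to 26.1 and 28.3 CPM (EtOH) and 78.2 and 49.6 CPM (4-OHT), so that all day 6 values exceeded both of day 4, with a log2 fold change of 1.57 (SE 0.20, adjusted p = 0.00868 by edgeR). *Muc2*, the main mucin, did not follow: it was at 177 CPM (EtOH) and 494 CPM (4-OHT) at day 4 and between 183 and 360.0 CPM at day 6 (log2 fold change −0.23, SE 0.31, adjusted p = 0.782 by edgeR). Without the day 4 library labelled 4-OHT, 0 goblet cell markers passed (adjusted p by edgeR 0.252 for *Zg16* and 0.0886 for *Clca1*).

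Of 15 Paneth cell markers tested, 1 rose and 0 fell, and the list median of 1.46 was higher than that of the enterocyte list. The 1 gene, *Guca2b*, encodes uroguanylin, a peptide hormone of salt and water transport that other cells of the epithelium also make. It was at 11.3 CPM (EtOH) and 38.5 CPM (4-OHT) at day 4 and at 34.9 and 28.5 CPM (EtOH) and 103 and 86.5 CPM (4-OHT) at day 6, a log2 fold change of 1.38 (SE 0.15, adjusted p = 0.00394 by edgeR). Of its exon bases, 50.3% overlap another gene. *Lyz1*, the Paneth cell lysozyme, was at 109 CPM (EtOH) and 510.0 CPM (4-OHT) at day 4 and at 891 and 561 CPM (EtOH) and 1818 and 746 CPM (4-OHT) at day 6. All day 6 values exceeded both of day 4, yet the log2 fold change of 1.97 (SE 0.41) had an adjusted p of 0.0809 by edgeR. The summed level of the 15 markers was lowest in the EtOH library of day 4 (532 CPM), against 1857 CPM in 4-OHT at day 4 and 2273 to 5491 CPM at day 6. The list median was 2.56 in EtOH and 0.80 in 4-OHT. Leaving out 1 library at a time, between 0 (without either day 4 library) and 9 (without 4-OHT replicate 2 of day 6) Paneth cell markers passed.

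*Reg1*, a secreted C-type lectin of the regenerating family, belongs to no list and was named by its size. It had 1 count (0.0510 CPM) in EtOH and 4.74 CPM in 4-OHT at day 4, and 12.8 and 6.02 CPM (EtOH) and 50.7 and 24.2 CPM (4-OHT) at day 6. All day 6 values exceeded both of day 4. The log2 fold change of 3.69 (SE 0.61, adjusted p = 0.0333 by edgeR) rests in part on that 1 count. It was 2.98 without the EtOH library of day 4 and 7.34 without the 4-OHT library of day 4, and the adjusted p was 0.152 by limma-voom, 0.102 without 4-OHT replicate 1 of day 6 and 0.0551 without the EtOH library of day 4.

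Among 20 enteroendocrine markers tested, 2 rose (*Chga* and *Nts*), 0 fell, and the list median was 1.502. *Chga* encodes chromogranin A, a protein of hormone granules. Its level was 9.48 CPM (EtOH) and 39.7 CPM (4-OHT) at day 4 and 81.4 and 59.8 CPM (EtOH) and 138 and 69.3 CPM (4-OHT) at day 6, a log2 fold change of 2.04 (SE 0.37, adjusted p = 0.0463 by edgeR). It passed within EtOH (log2 fold change 2.90) and not within 4-OHT (1.38). The call for *Chga* was lost in 7 of 19 alternatives, among them the one without the EtOH library of day 4. Others were those without EtOH replicate 1 of day 6 (adjusted p = 0.0635 by edgeR) and without 4-OHT replicate 1 of day 6 (0.145). It was also lost by limma-voom (adjusted p = 0.0524). Its log2 fold change was 1.38 without the EtOH library of day 4 and 2.88 without the 4-OHT library of day 4. *Nts*, neurotensin, had a mean under 5 CPM and is outside the 65 genes: it was at 0.0510 CPM (EtOH) and 0.203 CPM (4-OHT) at day 4, and at 2.57 and 2.20 CPM (EtOH) and 6.23 and 4.83 CPM (4-OHT) at day 6 (adjusted p = 0.00338 by edgeR). *Gcg*, the proglucagon gene, stood out among those that did not pass: 2.55 CPM (EtOH) and 29.8 CPM (4-OHT) at day 4 and between 37.9 and 58.5 CPM in the 4 libraries of day 6. The test of a different day effect in the 2 treatments gave *Gcg* the smallest adjusted p, 0.0757 by edgeR. Summed over the 20 markers, the EtOH library of day 4 held 98.6 CPM, the 4-OHT library of day 4 held 391 CPM, and the day 6 libraries held 516 to 958 CPM. By the condition on order, 17 of 20 were higher and 0 lower, where 18.5% of all genes tested were higher and 18.4% lower. Leaving out 1 library at a time, 1 to 9 members passed, with the 9 found without the day 4 library labelled 4-OHT. Of 10 tuft cell markers tested, 0 passed by edgeR in either direction, 4 had an unadjusted p under 0.05, and DESeq2 called 0. Their list median was 0.93, with 1.54 in EtOH and 0.13 in 4-OHT. Positive values were found in 9 of the 10, and by the condition on order 5 were higher and 0 lower.

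**Figure D3:**
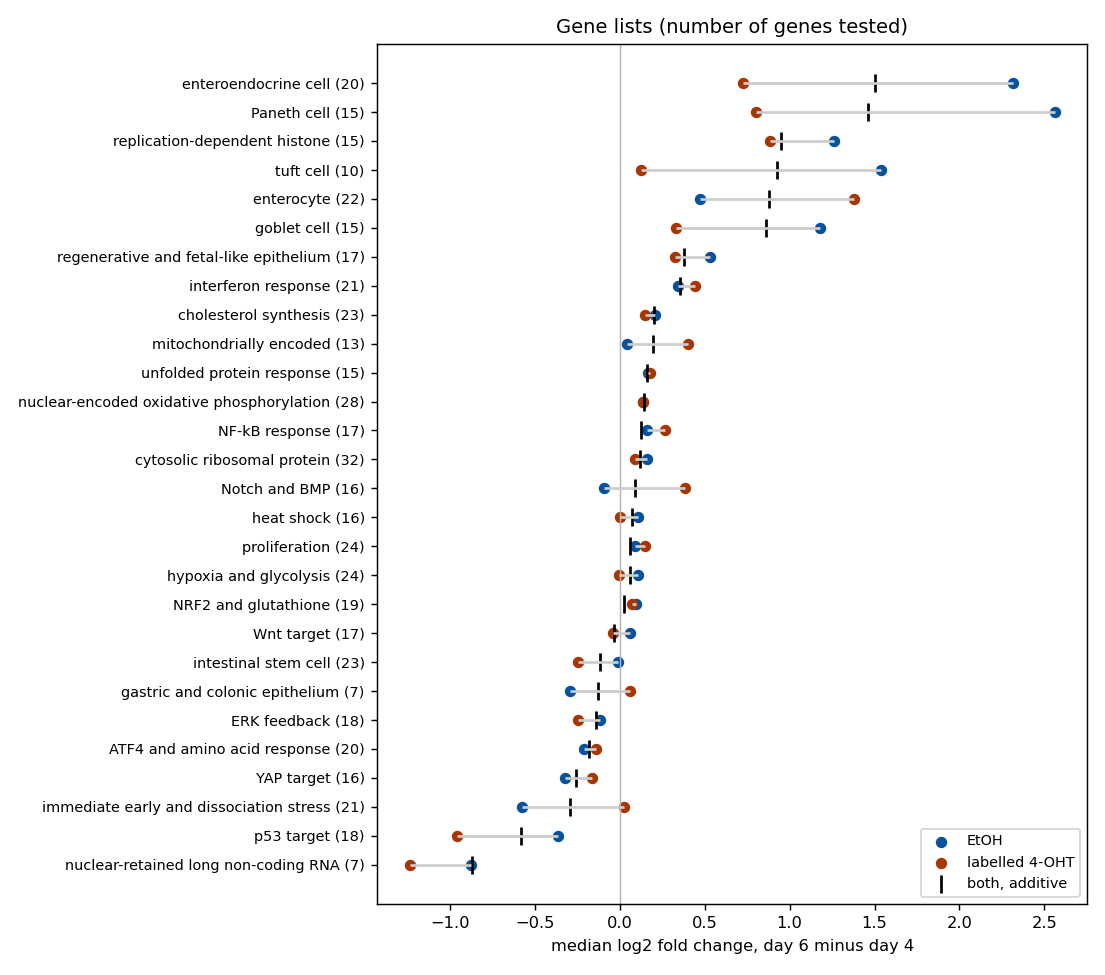
Median log2 fold change of day 6 over day 4 for each gene list with at least 5 genes tested, in EtOH (blue), in the libraries labelled 4-OHT (brown) and in the fit of both (black bar), with the number of genes tested in brackets. The enteroendocrine and Paneth cell lists have the highest medians (1.502 and 1.462), with larger values in EtOH than in 4-OHT, the enterocyte list has a larger value in 4-OHT, and the lists of p53 targets and nuclear-retained RNA have the lowest.

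Of 17 genes tested on the list of regenerative and fetal-like epithelium, 2 rose and 0 fell, where 0.324% of all genes tested were higher. The list median was 0.38. *Msln*, mesothelin, a surface glycoprotein, was at 0.459 CPM (EtOH) and 7.52 CPM (4-OHT) at day 4 and at 2.84 and 2.66 CPM (EtOH) and 40.7 and 29.9 CPM (4-OHT) at day 6. Its log2 fold change was 2.32 (SE 0.25, adjusted p = 0.00338 by edgeR). *Sprr1a*, a cornified envelope protein, went from 4.28 CPM (EtOH) and 25.1 CPM (4-OHT) to 10.9 and 11.4 CPM (EtOH) and 57.6 and 46.6 CPM (4-OHT), a log2 fold change of 1.19 (SE 0.17, adjusted p = 0.0158 by edgeR). In both genes the day 4 library labelled 4-OHT lay above the EtOH libraries of day 6. Of 7 genes of gastric and colonic epithelium tested, 0 passed by edgeR, 0 had an unadjusted p under 0.05, DESeq2 called 0, and the median was −0.13. *Anxa10*, an annexin on none of the lists, was at 1.12 CPM (EtOH) and 8.74 CPM (4-OHT) at day 4 and at 5.41 and 4.52 CPM (EtOH) and 37.3 and 35.3 CPM (4-OHT) at day 6, a log2 fold change of 2.08 (SE 0.20, adjusted p = 0.00338 by edgeR). In log2 fold change, *H2-Q1*, a class I histocompatibility gene, rose by 2.03 (SE 0.32) and *2010106E10Rik* by 2.35 (SE 0.32). *H2-Q1* shares 9.8% of its transcript at 97% identity or more with other places in the genome.

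In 39 of the 44, the day 4 library labelled 4-OHT lay above the EtOH library of day 4, which compares 1 library with 1. The 5 exceptions were *Gm28437*, *Gm28661*, *Gm29216*, *mt-Co3* and *Rn18s-rs5*. Among the 21 genes lower at day 6, the 4-OHT library of day 4 lay above the EtOH library in 9. The share over all genes was not counted. The summed levels of the goblet, Paneth and enteroendocrine markers were lowest in the EtOH library of day 4, while that of the enterocyte markers was lowest in EtOH replicate 1 of day 6. The part of the mix of sorted cells in the day differences was not tested.

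The genes lower at day 6 have other known roles. *Hspg2*, perlecan, a heparan sulfate proteoglycan of basement membranes (chromosome 4, 137196079 to 137298231, plus strand, GRCm39, 97 exons in the longest transcript), was at 373 CPM (EtOH) and 310.1 CPM (4-OHT) at day 4. It was at 123 and 214 CPM (EtOH) and 137 and 131 CPM (4-OHT) at day 6. Every day 6 value lay below both day 4 values, with a log2 fold change of −1.18 (SE 0.18, adjusted p = 0.0235 by edgeR). *Fras1*, which encodes another matrix protein of epithelial basement membranes, fell from 71.0 CPM (EtOH) and 55.9 CPM (4-OHT) to 20.2 and 35.0 CPM (EtOH) and 17.1 and 22.7 CPM (4-OHT). The groups did not overlap, and its log2 fold change was −1.43 (SE 0.20, adjusted p = 0.0154 by edgeR).

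*Eppk1*, epiplakin, which binds keratin filaments, was at 79.5 CPM (EtOH) and 118 CPM (4-OHT) at day 4 and between 26.4 and 52.1 CPM at day 6 (−1.32, SE 0.23, adjusted p = 0.0423 by edgeR). *Syne2*, nesprin-2, which links the nucleus to the cytoskeleton, was at 211 CPM (EtOH) and 189 CPM (4-OHT) at day 4 and between 90.3 and 133 CPM at day 6 (−0.89, SE 0.13). *Celsr2*, a cadherin of planar cell polarity, fell by 0.90 on the log2 scale (SE 0.16). *Ppp1r9a*, neurabin, an actin-binding scaffold, fell by 0.91 (SE 0.16).

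*Kmt2d*, a histone H3 lysine methyltransferase of enhancers, was at 262 CPM (EtOH) and 261 CPM (4-OHT) at day 4 and at 109 and 150.2 CPM (EtOH) and 118 and 105 CPM (4-OHT) at day 6. The day 4 libraries were nearly equal and all of day 6 lay below them, a log2 fold change of −1.12 (SE 0.14, adjusted p = 0.00808 by edgeR). *Zfhx3*, a zinc finger and homeobox transcription factor, went from 46.7 CPM (EtOH) and 57.4 CPM (4-OHT) to between 19.1 and 29.3 CPM (−1.09, SE 0.17, adjusted p = 0.0261 by edgeR). *Birc6*, a very large inhibitor of apoptosis and ubiquitin ligase, was at 246 CPM (EtOH) and 255 CPM (4-OHT) at day 4 and between 109 and 159.8 CPM at day 6 (−0.98, SE 0.16, adjusted p = 0.0278 by edgeR). Outside the naming rule, *Cspp1* (−0.77), *Prkdc*, the catalytic subunit of a DNA repair kinase (−0.80), *Mdm4*, an inhibitor of p53 (−0.93), *Plod2*, a lysyl hydroxylase of collagen (−1.29), and *Arc* (−0.85) also fell.

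For *Muc17* and *Zfp385a* the treatments stood far apart. *Muc17*, a membrane mucin of enterocytes, was at 79.8 CPM (EtOH) and 290.0 CPM (4-OHT) at day 4 and at 33.7 and 38.4 CPM (EtOH) and 164 and 181 CPM (4-OHT) at day 6, a log2 fold change of −0.95 (SE 0.13, adjusted p = 0.012 by edgeR). By contrast, 20 of the 22 enterocyte markers had positive values. *Zfp385a*, a zinc finger protein that binds p53, was at 5.97 CPM (EtOH) and 30.4 CPM (4-OHT) at day 4 and at 2.95 and 2.90 CPM (EtOH) and 7.06 and 6.98 CPM (4-OHT) at day 6, a log2 fold change of −1.64 (SE 0.25, adjusted p = 0.0235 by edgeR).

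**Figure D4:**
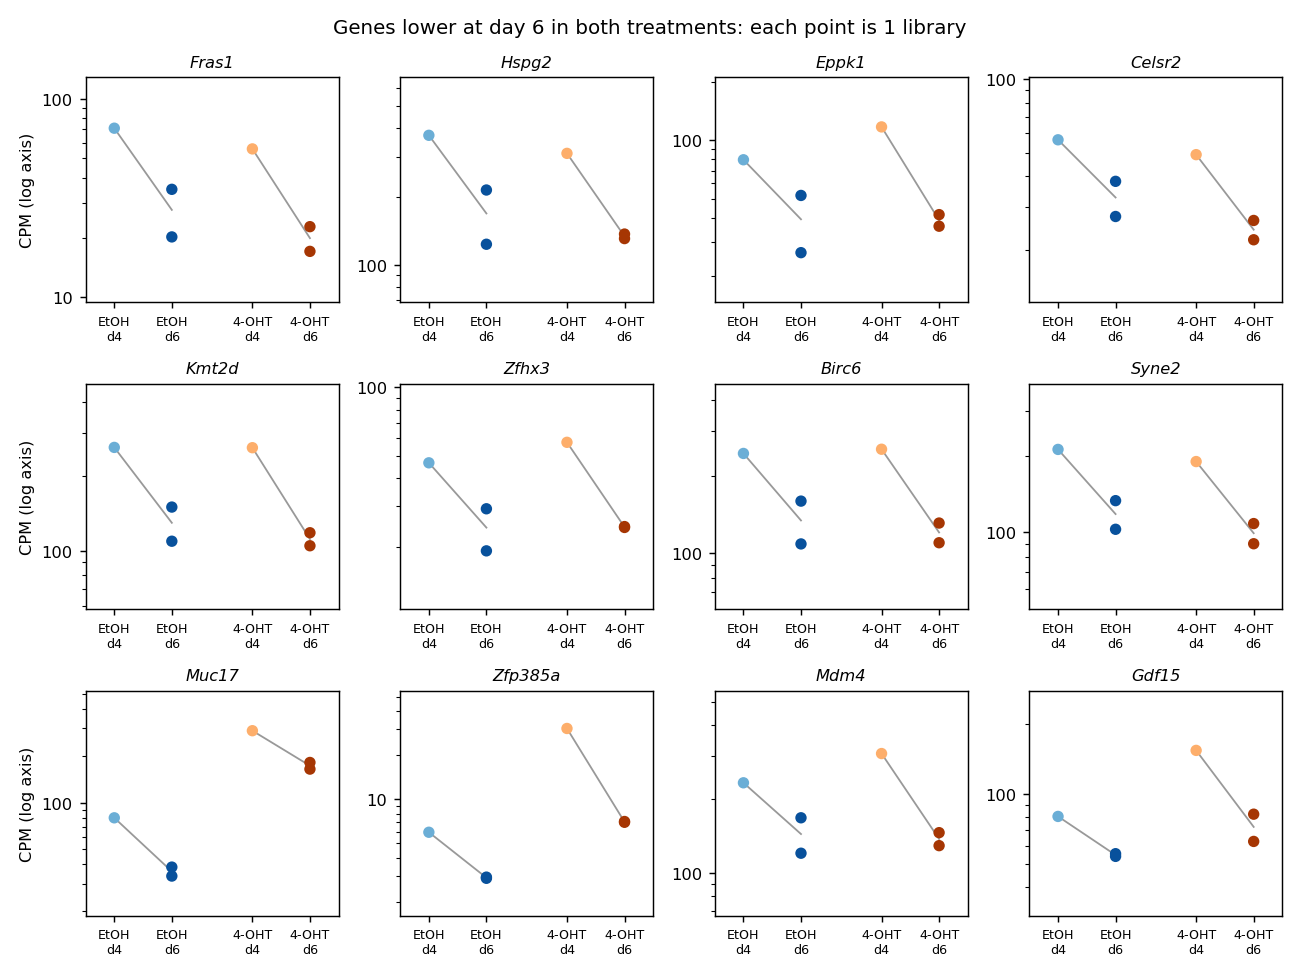
CPM (log axis) of 12 genes lower at day 6, with 1 point per library and lines from the day 4 library to the mean of the 2 day 6 libraries of the same treatment. Both day 6 points lie below the day 4 point of their treatment in every panel, and in EtOH the 2 day 6 libraries are further apart than in 4-OHT for *Hspg2*, *Kmt2d*, *Zfhx3* and *Birc6*.

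The p53 targets were mostly lower at day 6, and 1 passed. Of 18 tested, *Gdf15*, a stress-induced cytokine, fell and 0 rose, where 0.218% of all genes tested were lower. The list median was −0.58. *Gdf15* was at 80.4 CPM (EtOH) and 155 CPM (4-OHT) at day 4 and at 55.6 and 54.1 CPM (EtOH) and 62.8 and 82.2 CPM (4-OHT) at day 6. The 82.2 CPM of 4-OHT at day 6 lay above the EtOH library of day 4, and the log2 fold change of −0.83 (SE 0.15) had an adjusted p of 0.0499 by edgeR, which rose to 0.814 without the day 4 library labelled 4-OHT. *Trp53inp1*, a cofactor of p53, was at 30.3 CPM (EtOH) and 91.1 CPM (4-OHT) at day 4 and between 11.2 and 36.4 CPM at day 6 (−1.21, SE 0.26, adjusted p = 0.0858 by edgeR). By the condition on order, 12 of the 18 were lower and 1 (*Sesn1*) was higher, where 18.4% of all genes tested were lower and 18.5% higher. Summed CPM of the list was highest in the 4-OHT library of day 4 (1878 CPM), against 1021 CPM in EtOH at day 4 and 701 to 1054 CPM at day 6, and the list median was −0.36 in EtOH and −0.96 in 4-OHT. Leaving out 1 library at a time, 0 to 10 members passed, with the 10 found without EtOH replicate 2 of day 6.

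Exonic length, the bases covered by all annotated exons of a gene and not the length of a single transcript, was not used in the selection. For the 18 lower protein-coding genes its median was 14695.5 bases, against 2805 bases for the 39 higher protein-coding genes and 6606 bases for all 10121 protein-coding genes of this level. Of the 18 lower genes, 13 had at least 8000 bases (72.2%), where 36.7% of all did. The other 5 were *Rpl35rt* (445 bases), *Gdf15* (2263), *Zfp385a* (2732), *Arc* (3488) and *Plod2* (6436). Over all these genes the day difference itself moved with length: the median log2 fold change was 0.25 for 81 genes under 1000 bases and −0.13 for 1358 genes of at least 12000 bases. The trend differed between libraries of 1 treatment, from 0.51 to −0.28 in EtOH replicate 1 of day 6 and from 0.04 to −0.03 in EtOH replicate 2. With an offset that removes each library's dependence on length, 92 genes met the rule (59 higher, 33 lower) and 64 of the 65 were among them. The log2 fold change with this offset was −0.59 for *Syne2* (−0.89 without it), −0.69 for *Birc6* (−0.98), −0.88 for *Kmt2d* (−1.12) and −0.84 for *Zfhx3* (−1.09). For these and for *Hspg2*, *Ppp1r9a* and *Celsr2*, no other alternative gave a smaller fall. For *Fras1*, *Eppk1* and *Muc17* another setting gave the smallest fall. Receptor genes gave 0.00743 (EtOH) and 0.00463 (4-OHT) CPM per 1000 bases of exon at day 4. The same density over the exons of the 21 lower genes would equal 0.00141% to 0.340% of their day 4 level. Reads that fit several of these related receptor genes, and reads from introns, are not in that density, and it may not hold for other genes. The part of genomic or unspliced reads in the falls was not tested.

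Of 13 genes of the mitochondrial genome tested, 3 rose, where 0.324% of all genes tested were higher. They were *mt-Co2* and *mt-Co3*, subunits of cytochrome c oxidase, and *mt-Atp6*, a subunit of ATP synthase. *mt-Atp6* was at 1.43 CPM (EtOH) and 1.76 CPM (4-OHT) at day 4 and at 10.1 and 8.69 CPM (EtOH) and 11.2 and 8.16 CPM (4-OHT) at day 6, a log2 fold change of 2.58 (SE 0.28, adjusted p = 0.00383 by edgeR). The log2 fold changes of *mt-Co2* and *mt-Co3* were 1.65 (SE 0.19) and 1.58 (SE 0.22). Pseudogenes on chromosome 1 rose beside them. *Atp6-ps* was at 5.35 CPM (EtOH) and 5.76 CPM (4-OHT) at day 4 and at 24.7 and 22.8 CPM (EtOH) and 26.2 and 18.1 CPM (4-OHT) at day 6, a log2 fold change of 2.05 (SE 0.21, adjusted p = 0.00338 by edgeR). *Gm28437* (1.98, SE 0.21), *Gm28661* (1.41, SE 0.19) and *Gm29216* (1.10, SE 0.20) lie next to it.

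These genes and pseudogenes are copies of one another. In GRCm39, chromosome 1 holds on its minus strand, at 24650616 to 24655269, a copy of bases 6390 to 11042 of the mitochondrial genome that differs at 2 aligned bases and by 1 gap, with 0 differences in *mt-Co2*, *mt-Atp6* and *mt-Co3*. The first 60 bases of *mt-Atp6* and of *Atp6-ps* show the identity.
mt-Atp6, chrM:7927-7986, plus strand: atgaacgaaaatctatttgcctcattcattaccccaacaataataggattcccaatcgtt
Atp6-ps, chr1:24653673-24653732, minus strand: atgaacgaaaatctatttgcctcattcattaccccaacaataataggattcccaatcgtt
The 2 differing bases are T3C in *mt-Nd3* and A1066T in *mt-Co1*, counted from the first base of the gene, with the mitochondrial base first. The stretch around the first of these is shown with that base in capitals.
mt-Nd3, chrM:9431-9491, plus strand: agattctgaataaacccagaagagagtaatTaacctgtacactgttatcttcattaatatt
Copy on chr1:24652168-24652228, minus strand: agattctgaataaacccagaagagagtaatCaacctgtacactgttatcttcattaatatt
Reads that fit several places are in none of the gene counts, so a gene inside the copied block is counted only from reads that were placed in 1 place. *mt-Co1*, with 31.3% of its length inside the block, was at 19535 to 23156 CPM, and the days overlapped. Genes mostly or wholly outside the block did not pass, with log2 fold changes of 0.26 (SE 0.15) for *mt-Nd1*, 0.19 (SE 0.20) for *mt-Cytb* and 0.10 (SE 0.12) for *mt-Co1*. *mt-Nd3*, wholly inside the block, did not pass either (0.38, adjusted p = 0.676 by edgeR). The share of reads that fit several places was 4.65% and 4.85% at day 4 and 5.22% to 5.77% at day 6, and its part in these rises was not tested.

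**Figure D5:**
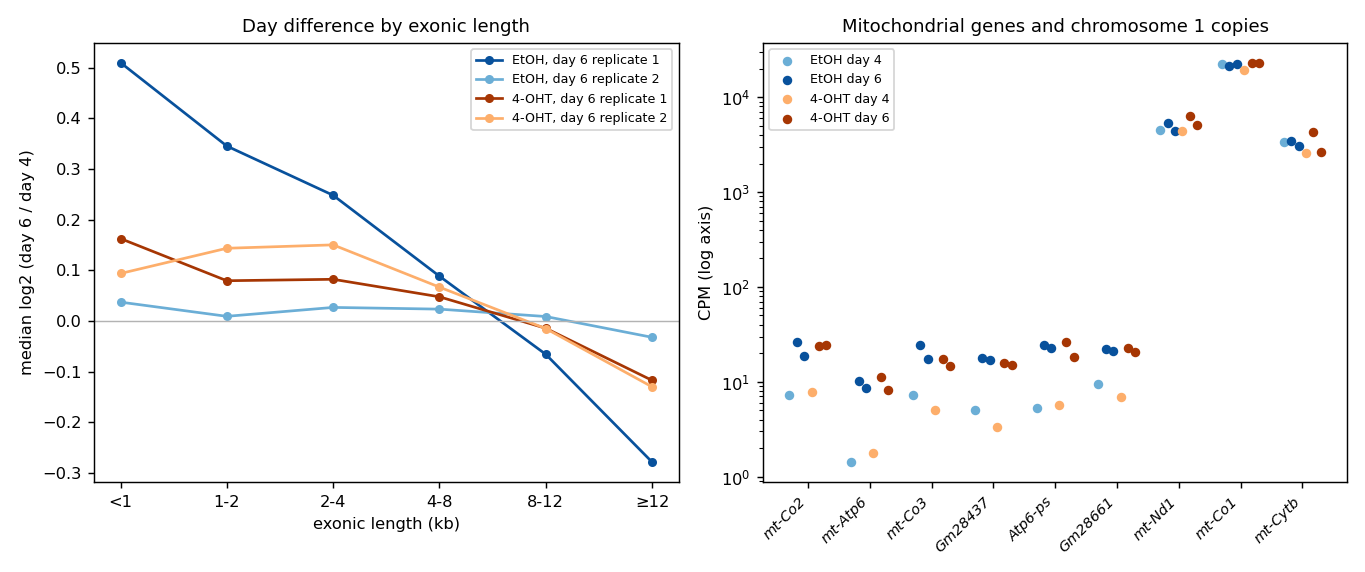
Left, median log2 ratio of each day 6 library to the day 4 library of its treatment (y axis) by exonic length in kilobases (x axis), for protein-coding genes of at least 5 CPM; EtOH replicate 1 falls from 0.51 to −0.28 and EtOH replicate 2 stays near 0. Right, CPM per library (log axis) of mitochondrial genes and chromosome 1 copies: *mt-Co2*, *mt-Atp6*, *mt-Co3* and the pseudogenes are higher in all day 6 libraries, and *mt-Nd1*, *mt-Co1* and *mt-Cytb* overlap between the days.

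Other described genes have near copies too. More than 50% of the transcript matched another place in the genome at 97% identity or more for 12 of the 65, which were the 7 of the mitochondrial block, *Gm43305*, *Rpl35rt*, *Rps6-ps4*, *Eif3j2* and *Rn18s-rs5*. *Eif3j2*, a gene without introns for a subunit of a translation initiation factor, was at 0.867 CPM (EtOH) and 1.49 CPM (4-OHT) at day 4 and at 15.3 and 13.3 CPM (EtOH) and 16.3 and 15.9 CPM (4-OHT) at day 6, a log2 fold change of 3.72 (SE 0.27, adjusted p = 0.000288 by edgeR). Of its transcript, 86.4% matched other places in the genome, with most of the matched length on chromosome 2. The related gene *Eif3j1* had a log2 fold change of −0.12 (adjusted p = 0.707 by edgeR). The pseudogene *Gm3650*, beside *Eif3j2* on chromosome 18, is outside the 65 by its mean. It had 0 counts in both day 4 libraries and 39 to 70 counts in the day 6 libraries. In *Rn18s-rs5*, an 18S ribosomal RNA gene that oligo-dT selection should deplete, the level went from 1068 CPM (EtOH) and 791 CPM (4-OHT) to 2163 and 2379.7 CPM (EtOH) and 1956 and 1673 CPM (4-OHT), a log2 fold change of 1.14 (SE 0.14).

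*Gm43305*, a long non-coding RNA gene on chromosome 14 (54529898 to 54534949, minus strand, GRCm39), had the smallest adjusted p of all genes. It was at 759 CPM (EtOH) and 371 CPM (4-OHT) at day 4 and at 119 and 109 CPM (EtOH) and 62.2 and 71.7 CPM (4-OHT) at day 6, a log2 fold change of −2.61 (SE 0.12, adjusted p = 1.39e-05 by edgeR). All of its transcript has near copies elsewhere. *Rpl35rt*, a gene without introns for a ribosomal protein of the large subunit, went from 126 CPM (EtOH) and 146 CPM (4-OHT) to between 38.9 and 59.2 CPM (−1.58, SE 0.17, adjusted p = 0.00338 by edgeR). The processed pseudogene *Rps6-ps4* fell by 1.03 on the log2 scale (SE 0.11), and *A930004J17Rik*, a transcript of unproven kind, fell by 1.73 (SE 0.30). Of 32 cytosolic ribosomal protein genes tested, 0 passed by edgeR in either direction, 2 had an unadjusted p under 0.05, DESeq2 called 0, and the list median was 0.12.

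Among 7 nuclear-retained RNA genes tested, *Kcnq1ot1*, an imprinted antisense RNA, passed as lower, as 0.218% of all genes tested did. It was at 3.87 CPM (EtOH) and 6.51 CPM (4-OHT) at day 4 and between 0.376 and 1.30 CPM at day 6, a log2 fold change of −2.42 (SE 0.44, adjusted p = 0.0463 by edgeR). It is outside the 65 by its mean, and the call was lost without the day 4 library labelled 4-OHT (adjusted p = 0.689 by edgeR). The list median of −0.87 includes *Xist*, which differed by replicate number. Genes annotated as unproven transcripts, which often lie in introns, had a median log2 fold change of −0.94 over 370 tested, with 1 that passed, and the genes under 5 CPM as a whole had a median of −0.14.

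Several stress and signalling lists held 0 genes that passed by edgeR. Over all genes tested, 13.2% had an unadjusted p under 0.05. For immediate early genes (21 tested, median −0.29), 8 had an unadjusted p under 0.05 and DESeq2 called 3 lower. For YAP targets (16, −0.26) these numbers were 5 and 1 lower, for ATF4 targets (20, −0.18) 3 and 2 lower, for interferon response genes (21, 0.36) 5 and 1 higher, for cholesterol synthesis (23, 0.20) 4 and 1 higher, and for replication-dependent histones (15, 0.95) 6 and 1 higher. Heat shock genes (16, 0.07) and genes of the unfolded protein response (15, 0.16) each had 1 at an unadjusted p under 0.05 and 0 by DESeq2, and hypoxia and glycolysis genes (24, 0.06) had 0 by either. With the replicate number as a block in edgeR, 3 immediate early, 2 YAP and 2 ATF4 genes were called lower, 1 interferon response and 1 histone gene higher, and 0 of the heat shock, unfolded protein, cholesterol and hypoxia lists. *Fosb*, an immediate early transcription factor, was at 298 CPM (EtOH) and 139 CPM (4-OHT) at day 4 and between 49.9 and 104 CPM at day 6, with a log2 fold change of −1.51 (SE 0.31, adjusted p = 0.0732 by edgeR). Histone messenger RNA lacks a poly(A) tail, and of its 15 genes 13 had positive values.

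Single libraries decided many of these calls. Without the day 4 library labelled 4-OHT, 31 of the 43 genes chosen by the naming rule lost the call, without the EtOH library of day 4 24 did, without 4-OHT replicate 1 of day 6 19, without 4-OHT replicate 2 12, without EtOH replicate 1 5 and without EtOH replicate 2 0. The 43 include *Ythdf2* and *Lgr5*, which had not passed with all 6 libraries and so had no call to lose. The sign of the log2 fold change of all 43 stayed the same whichever library was left out. *Krt20*, *Apoa1*, *Ggt1*, *Eif3j2*, *mt-Atp6*, *Atp6-ps*, *Gm43305* and *Nts* passed whichever library was left out. Without the day 4 library labelled 4-OHT, the adjusted p by edgeR was 0.0623 for *Lct*, 0.0651 for *Msln*, 0.0558 for *Anxa10*, 0.0609 for *Guca2b* and *Muc17*, 0.436 for *Apoa4* and *Zfhx3*, 0.358 for *H2-Q1*, 0.228 for *2010106E10Rik* and *Hspg2*, 0.13 for *Sprr1a*, 0.167 for *Fras1*, 0.552 for *Eppk1*, 0.145 for *Kmt2d*, 0.395 for *Birc6*, 0.312 for *Syne2*, 0.582 for *Celsr2*, 0.443 for *Ppp1r9a*, 0.659 for *Zfp385a* and 0.0651 for *Rpl35rt*. Among the other genes described above, the values were 0.0808 for *mt-Co2*, 0.137 for *mt-Co3*, 0.0612 for *Gm28437*, 0.186 for *Gm28661*, 0.206 for *A930004J17Rik* and 0.0695 for *Rps6-ps4*. Day 4 then has 1 library, assumed to vary like the others. Without the EtOH library of day 4, the 24 genes that lost the call had adjusted p-values from 0.0529 (*Kmt2d*) to 0.353 (*A930004J17Rik*), among them *Reg1*, *2010106E10Rik*, *Guca2b*, *Clca1*, *Sprr1a*, *Apoa4*, *H2-Q1*, *Hspg2*, *Fras1*, *Birc6*, *Syne2*, *Celsr2*, *Muc17* and *Ppp1r9a*. Without 4-OHT replicate 1 of day 6 they ran from 0.0523 (*Fras1*) to 0.145 (*Chga*), without 4-OHT replicate 2 from 0.0536 (*H2-Q1*) to 0.108 (*Celsr2*), and without EtOH replicate 1 from 0.052 (*Gdf15*) to 0.0793 (*Kcnq1ot1*).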

How the data were processed

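Poly(A)-selected RNA of sorted organoid cells was sequenced in 6 libraries. The authors deposited raw read counts per gene, and STAR and mm39 are named per the submitters' processing notes. Neither the gene annotation used nor whether strand was counted is given in the sources used here. Lines of reads that were unmapped, fit several places, lay outside genes or were ambiguous made up 19.3% to 26.7% of each library and were left out. Of 56884 gene identifiers, 56323 matched GENCODE M39.

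Counts were filtered with filterByExpr (minimum count 10), scaled by TMM and fitted with edgeR 4.0.16 (R 4.3.3) by quasi-likelihood, with day and treatment as additive terms and 3 residual degrees of freedom. A fit of 4 groups, with 2 residual degrees of freedom, gave the day effect within each treatment and the difference between treatments. P-values were adjusted by Benjamini-Hochberg over 16031 genes, with a threshold of 0.05. Named genes are *Ythdf2* and *Lgr5*, the 12 protein-coding genes per direction with the largest change in the treatment where they changed less, the 3 non-coding genes per direction by the same ranking, and the 4 called members of each of 33 lists with the largest change. The members and lists were chosen with earlier results of these data known. On simulated counts of 15346 genes for the additive comparison, 95% of 4-fold and 66% of 2-fold changes were recovered. Near copies were found with blastn 2.17.0. Alternatives included DESeq2 1.42.0, limma-voom (limma 3.58.1), other filters and scalings, a replicate block, and leaving out each library. Counting precision is set by 14.3 to 21.5 counts at 1 CPM. A gene that the naming rule chose is not reported here.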

Additional observations from a re-analysis of the deposited data

Results flagged for a closer look

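For genes of Notch and BMP signalling, the list mean had opposite signs in the 2 treatments, although 8 of 16 members were positive in EtOH and 9 of 16 in 4-OHT and 0 passed the test for day by edgeR (5 at an unadjusted p under 0.05, 2 lower by DESeq2). The mean log2 CPM of the list, day 6 minus the day 4 library of the same treatment, was −0.164 in EtOH replicate 1 and −0.0874 in EtOH replicate 2, and 0.262 in 4-OHT replicate 1 and 0.0993 in 4-OHT replicate 2. Both replicates of a treatment share 1 day 4 library, and the difference between the treatments was not tested.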

How the results depend on the processing

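The 87 genes that passed for day became 832 with no filter on low counts, 318 by DESeq2, 34 among protein-coding genes of 2 or more exons, 1358 with the day 6 libraries numbered 1 alone and 697 with those numbered 2 alone. The 65 described genes became 476, 250, 31, 1071 and 550 under the same settings, 38 at a mean of at least 20 CPM and 9 where a call in each treatment was required. With the replicate block the numbers were 254 and 198, and with the block and a GC offset 393 and 301. The labels give day 4 no replicate number and do not say that the numbers of day 6 pair samples, whose replicate differences correlated at 0.244 over all genes and 0.358 over those of at least 5 CPM, with only 2 pairs. *Xist* and the Y-linked genes also differed by number in the same way in both treatments, a hint from the data and not the design. Leaving out 1 library gave 22 to 459 genes for day and 28 to 393 described. The 22 were found without the 4-OHT library of day 4, and 12 of them were among the 87. A described count cannot be had without a day 4 library. By limma-voom 113 genes passed, 46 higher and 67 lower. The 33 genes in EtOH became 206 with no filter and 83 by DESeq2, and the 52 in 4-OHT became 305 and 120. The count of 0 for a different day effect between treatments became 36 with no filter, 1 with a GC offset and 6 by DESeq2. The settings with libraries of 1 number alone, and the filter with the 2 day 4 libraries as the smallest group, were chosen after seeing the data. For the 43 named genes, 516 of 547 other values kept their side of the threshold, 30 lost the call, and *Lgr5* gained one with the libraries numbered 1 alone (adjusted p = 0.0425 by edgeR). No direction reversed. Day 4 has 1 library per treatment and another series of library numbers, which limits every comparison here.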
